A study of Homo sapiens with 12 samples.

Results

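The genes described here are the zinc finger genes of the deposited table, taken by name: those whose symbol begins with ZNF, ZFP or ZBTB and a digit, or with ZSCAN or ZKSCAN. The name matched 23 of the 1676 genes listed. The read-through gene ZFP91-CNTF was left out and no pseudogene matched, which leaves 22 members, 5 on chromosome 19 and 17 on other chromosomes. The cells were SH-SY5Y, a human neuroblastoma line, and RNA was taken 24 h after transfection with a construct encoding the microtubule-binding protein tau. Tau-S199E carried a serine-to-glutamate substitution, a mimic of phosphorylation, Tau-K174Q a lysine-to-glutamine substitution, a mimic of acetylation, Tau-K174Q-S199E carried both, and Tau-WT carried neither. All groups were thus transfected with tau, and untransfected cells are not among the libraries. Each construct had 3 libraries, 12 in all, read near the 3′ end of polyadenylated transcripts.

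A classical C2H2 zinc finger folds around a zinc ion held by a pair of cysteines and a pair of histidines, and runs of such fingers read DNA sequence base by base. Many human zinc finger genes, most of all those in the clusters of chromosome 19, join their fingers to a KRAB domain, which recruits the corepressor TRIM28 and silences chromatin, often at transposable elements. SCAN and BTB domains let other members pair with one another, and some zinc finger proteins bind RNA instead of DNA.

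That variety was present among the 22 genes. In the gene ontology terms of the authors' deposited table, 14 members carried a term for DNA-binding transcription factor activity, 4 a term for RNA binding, 1 of these 4 carried both, and 5 carried neither. By these terms "transcription factor" describes only part of the set, but a missing term does not show that a protein lacks the function. In coding sequences of GENCODE v29, a C2H2 finger pattern occurred at least 6 times in 10 members, between 1 and 5 times in 11, and not at all in ZFP36L2, whose fingers hold zinc with 3 cysteines and 1 histidine (2 matches). ZNF304 had 16 matches, ZNF672 14 and ZNF530 13, whereas ZNF428, ZNF593 and ZNF706 had 1 each. Of the 600 protein-coding genes that match the name in GENCODE v29, 3.67% were in the table, against 7.94% of all protein-coding genes. The share was 1.92% of the 261 on chromosome 19 and 5.01% of those elsewhere. The filter that set the genes listed is not given in the sources used here, and 3′ counts may split between near-identical zinc finger genes. Whether either bears on these shares was not tested.

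The values of the libraries are a score: each gene was scaled by the authors to mean 0 and SD 1 across all 12 of them. A difference is given in units of the gene's own SD (SD units). Such values say nothing of level, they do not allow levels of different genes to be compared, and depth is unknown. Whether the libraries stem from separate cultures is not stated, and the p-values therefore reflect library-to-library spread, which may be technical. Each gene was fitted with a mean per construct over all 12 libraries in limma with its ordinary residual variance, and adjusted p is the Benjamini-Hochberg value over all 1676 genes. With 3 libraries against 3 an exact permutation test cannot go below p = 0.1, so it was not used to call genes. All 1676 genes have an adjusted p under 0.05 in the authors' deposited table (100% of the table), for a contrast that the header does not name. In all 22 members, as in all 1676 genes, the deposited sign equalled that of the interaction of K174Q with S199E and also that of Tau-WT minus Tau-S199E. The genes listed were thus chosen on values that fix these directions, and the direction of a member in Tau-S199E against Tau-WT is no independent result. The same choice bears on its size, its adjusted p and the separation of its libraries, also when a library is left out. Adjustment over the 1676 listed genes does not undo that choice.

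Libraries differed within constructs, and the zinc finger genes shared this. Tau-S199E library 12 was the farthest from 0 of its group in 18 of 22 members and in 85.4% of the table. Tau-K174Q-S199E library 18 lay on the side of Tau-S199E in most members: only 5 of 22 had its value on the side of Tau-WT (15.3% of the table). In library 16 all 22 members lay on that side (95.2% of the table), and in library 17 also all 22 (84.2% of the table). None of the 16 listed markers of the adrenergic neuroblastoma cells was in the table, so the identity of the cells could not be checked on it. Of 13 markers of mesenchymal or Schwann-like cells, CD44 and S100A6 were in the table and both rose with Tau-S199E, by 2.11 (SE 0.44, adjusted p = 0.01) and 2.2 SD units (SE 0.49, adjusted p = 0.0103). With Tau-S199E against Tau-WT 48.3% of all genes of the table passed with a rise, so nothing is read from these rises. Values scaled per gene cannot be summed to a marker level. The part of mesenchymal or Schwann-like cells in the zinc finger results was not tested.

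**Figure D1:**
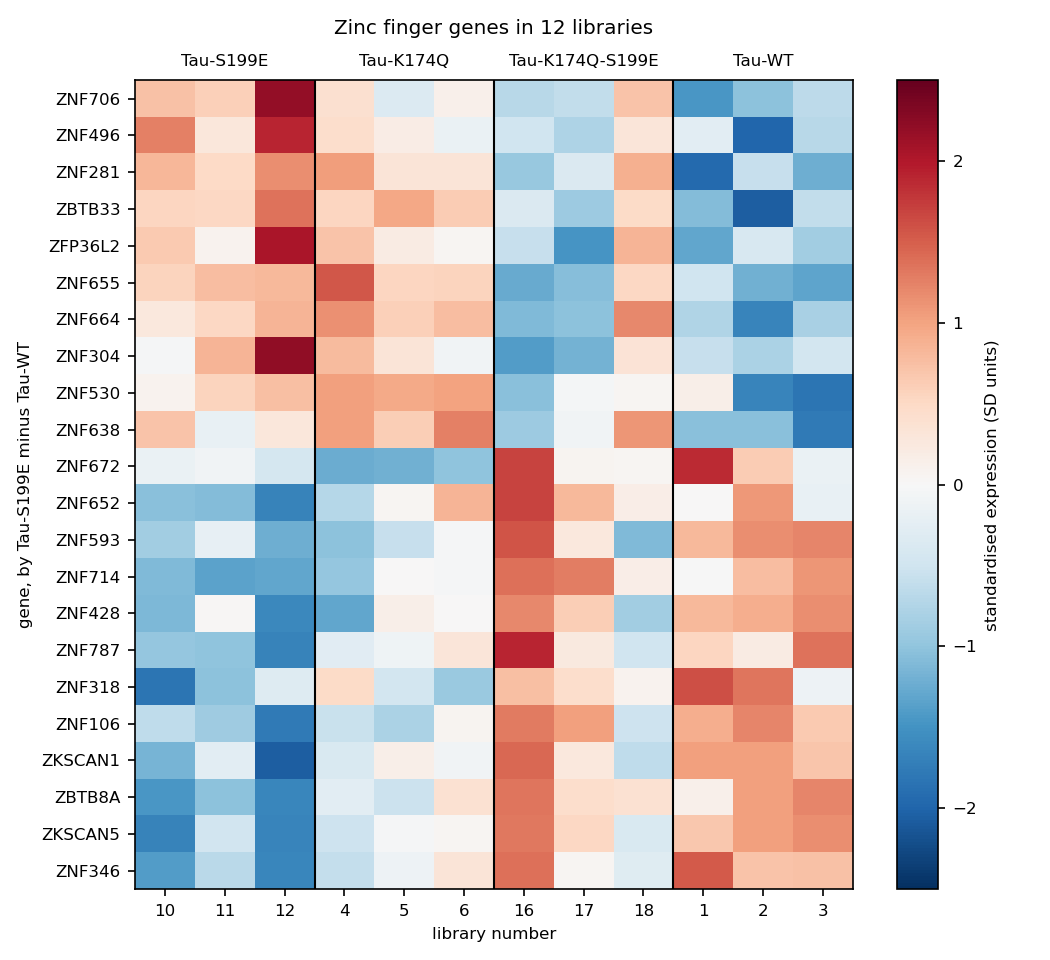
Standardised expression (colour, SD units) of the 22 zinc finger genes (rows, ordered by Tau-S199E minus Tau-WT) in the 12 libraries (columns, grouped by construct). The upper 10 genes are high with Tau-S199E and low with Tau-WT, the lower 12 the reverse, and library 18 of Tau-K174Q-S199E departs from libraries 16 and 17.

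With Tau-S199E against Tau-WT, the comparison that asks what the phosphorylation mimic alone does, 10 zinc finger genes rose and 11 fell, and ZNF672 did not pass. This is 21 of 22 members, where 90.0% of all genes of the table passed (48.3% rising and 41.8% falling), so the count is near the background. The median size of the difference was 1.89 SD units over the members and 1.99 over the table. The libraries of the constructs did not overlap in 20 members (94.2% of the table). The count of members was 10 without Tau-S199E library 12 (49.7% of the table) and 13 without Tau-WT library 2 (63.0% of the table). Leaving out any 1 of the 6 Tau-S199E and Tau-WT libraries left the calls of ZBTB33, ZBTB8A, ZKSCAN5, ZNF106, ZNF281, ZNF346, ZNF496, ZNF706 and ZNF714 in place, and each of the other calls was lost without at least 1 of them.

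The members with an RNA-binding term moved in both directions. ZNF346, which binds double-stranded RNA, had the smallest deposited adjusted p of the members (0.000776 in the authors' deposited table, with a log2 fold change of 1.89). Both deposited values are for the contrast that the header does not name. Its standardised values were -1.4, -0.68 and -1.64 in Tau-S199E libraries 10, 11 and 12, against 1.54, 0.72 and 0.73 in Tau-WT libraries 1, 2 and 3. The groups did not overlap, and ZNF346 had the largest fall of the members, by 2.24 SD units (SE 0.49, adjusted p = 0.0102). ZNF106, an RNA-binding protein whose loss in mice leads to degeneration of motor neurons and muscle, fell by 2.02 (SE 0.51, adjusted p = 0.0121). Its values were -0.63, -0.89 and -1.76 with Tau-S199E against 0.91, 1.22 and 0.66 with Tau-WT, again without overlap.

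ZFP36L2, which binds AU-rich elements and speeds the decay of mRNAs, rose by 1.79 SD units (SE 0.67, adjusted p = 0.0348). Library 12 was far above the others in this gene: the values were 0.66, 0.09 and 2.05 with Tau-S199E, against -1.29, -0.41 and -0.87 with Tau-WT. Without library 12 the difference was 1.23 and did not pass, and the call was also lost without library 10 or any 1 Tau-WT library. ZNF638, a nuclear protein that binds nucleic acids and acts with the HUSH silencing complex on retroviral DNA, rose by 1.56 (SE 0.5, adjusted p = 0.0219), with values of 0.71, -0.18 and 0.29 against -1.04, -1.04 and -1.77 with Tau-WT. Its call was lost without library 10, library 12 or Tau-WT library 3.

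The BTB members went apart. ZBTB33, known as Kaiso, binds methylated CpG and rose by 2.06 (SE 0.47, adjusted p = 0.0104). ZBTB8A fell by 2.16 (SE 0.4, adjusted p = 0.00968), with values of -1.45, -1.02 and -1.64 with Tau-S199E against 0.12, 1.02 and 1.23 with Tau-WT. Both calls held without library 12 and without Tau-WT library 2.

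Among SCAN members, ZKSCAN5 fell by 2.22 SD units (SE 0.47, adjusted p = 0.01) and ZKSCAN1, whose gene also gives rise to an abundant circular RNA that a 3′ kit does not capture, fell by 2.08 (SE 0.58, adjusted p = 0.0149). ZNF496, whose mouse counterpart binds the methyltransferase NSD1, rose by 2.13 (SE 0.56, adjusted p = 0.0131). Its values were 1.25, 0.29 and 1.91 with Tau-S199E against -0.27, -1.99 and -0.69 with Tau-WT, so the groups were separate although each was wide.

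Further members also split. ZNF281, a regulator of pluripotency genes, rose by 2.07 (SE 0.52, adjusted p = 0.012). ZNF652, a repressor that works with CBFA2T3, fell by 1.57 (SE 0.54, adjusted p = 0.0274), and its call was lost without Tau-S199E library 12 and without Tau-WT library 2. ZNF655, which interacts with VAV1, rose by 1.72 (SE 0.5, adjusted p = 0.0169), and ZNF664, which carries 9 finger patterns, by 1.62 (SE 0.6, adjusted p = 0.033). The call of ZNF664 was lost when any of the 6 Tau-S199E or Tau-WT libraries was left out.

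ZNF318, a long protein of 2279 residues with 2 finger patterns, which in mice controls IgD expression in B cells, fell by 2.01 (SE 0.59, adjusted p = 0.0169). That call was lost without Tau-WT library 1 or 2.

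The small proteins with 1 finger pattern were not alike. ZNF706, which in mouse embryonic stem cells promotes the exit from self-renewal, had the largest rise of the members, by 2.22 (SE 0.54, adjusted p = 0.011). It had values of 0.74, 0.59 and 2.2 with Tau-S199E, against -1.45, -1.03 and -0.65 with Tau-WT. The difference was 1.71 without library 12 and still passed. ZNF593, whose yeast counterpart takes part in export of the large ribosomal subunit, fell by 1.84 (SE 0.63, adjusted p = 0.0259), and ZNF428 by 1.87 (SE 0.65, adjusted p = 0.0272). Both calls were lost without library 10, library 12, Tau-WT library 2 or Tau-WT library 3. That of ZNF428 was also lost without Tau-WT library 1.

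ZNF672 was the member that did not pass in the fit reported, with a difference of -1.0 (SE 0.57, adjusted p = 0.12). Its values were -0.16, -0.08 and -0.43 with Tau-S199E, within a narrow range, against 1.86, 0.63 and -0.16 with Tau-WT, which spread widely and overlapped them. On ranks within each gene 20 members passed (85.4% of the table), 8 rising and 12 falling, and ZNF672 was among those that fell.

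**Figure D2:**
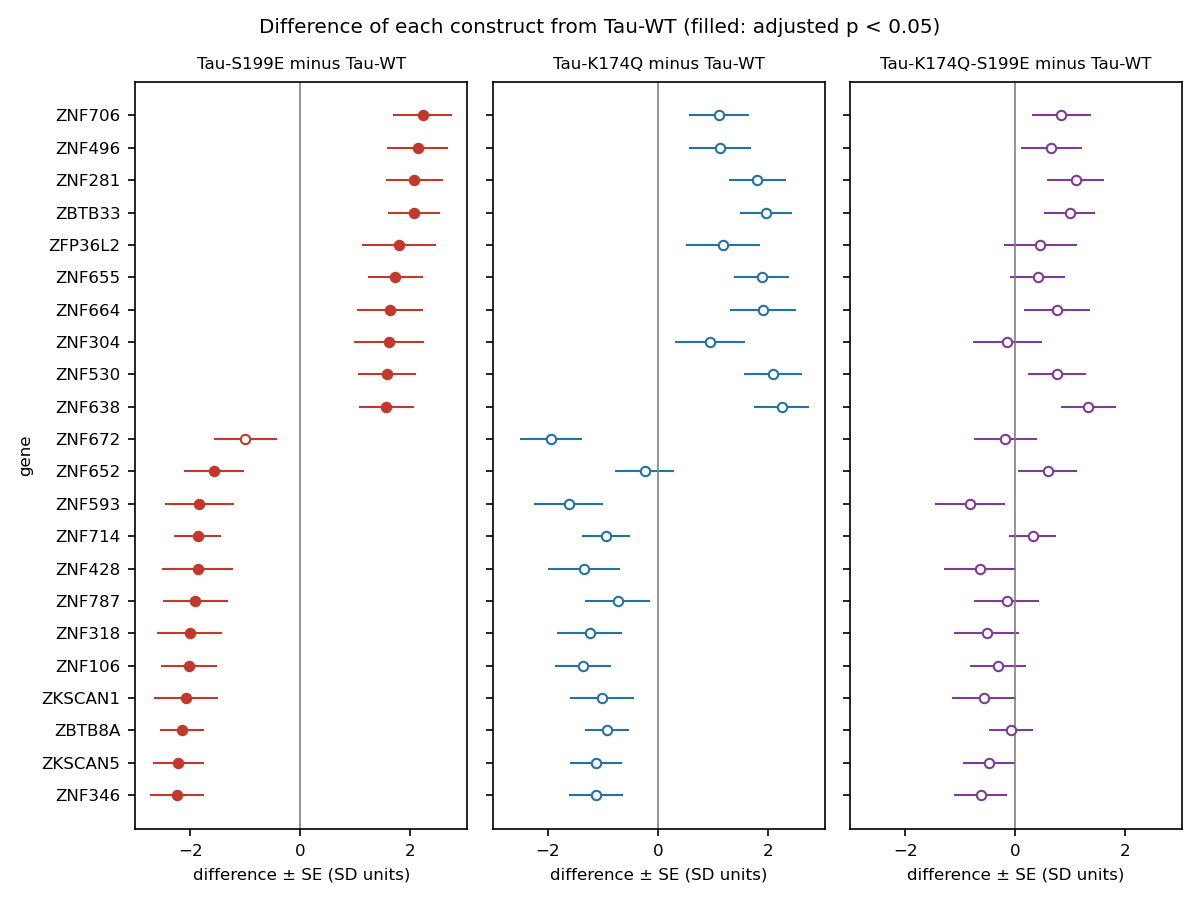
Difference of Tau-S199E, Tau-K174Q and Tau-K174Q-S199E from Tau-WT (points, with SE bars, SD units) for the 22 zinc finger genes, filled where adjusted p was under 0.05. Filled points occur for Tau-S199E in 21 genes, and for Tau-K174Q-S199E most points lie near 0, between -0.82 and 1.33. The 3 panels share the Tau-WT libraries.

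With Tau-K174Q against Tau-WT, the comparison for the acetylation mimic, no zinc finger gene passed in limma (0 of 22 members, 0% of the table). At an unadjusted p under 0.05 there were 11 members (51.9% of the table), and moderated variances called 11 (59.9% of the table). The libraries did not overlap in 17 members (80.7% of the table), and the median size of the difference was 1.21 SD units over the members and 1.32 over the table. The smallest p belonged to ZNF638 and ZBTB33. ZNF638 had values of 1.03, 0.61 and 1.26 in Tau-K174Q libraries 4, 5 and 6, against -1.04, -1.04 and -1.77 with Tau-WT, a difference of 2.25 (SE 0.5, adjusted p = 0.066). ZBTB33 had 0.54, 0.96 and 0.64 with Tau-K174Q, against -1.08, -2.06 and -0.62 with Tau-WT, a difference of 1.97 (SE 0.47, adjusted p = 0.066). In both genes every Tau-K174Q library lay above every Tau-WT library. The count of members was 9 without library 18 of Tau-K174Q-S199E (40.3% of the table), a library that enters this comparison only through the shared spread.

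In 17 of 22 members Tau-S199E lay farther from Tau-WT than Tau-K174Q did, as in 84.5% of the table. The other 5, picked out here after their values were seen, were ZNF530, ZNF638, ZNF655, ZNF664 and ZNF672. ZNF672 had values of -1.25, -1.21 and -1.01 with Tau-K174Q, all below its Tau-S199E values, a difference of Tau-K174Q from Tau-S199E of -0.93 (SE 0.57, adjusted p = 0.384). ZNF530 had 1.03, 0.94 and 1.0 with Tau-K174Q against 0.09, 0.56 and 0.75 with Tau-S199E, a difference of 0.53 (SE 0.53, adjusted p = 0.587). No member passed in limma between these constructs (0 of 22 members, 0.0597% of the table), with 3 members at an unadjusted p under 0.05 (16.1% of the table) and 0 by moderated variances. ZBTB8A came nearest, with -0.27, -0.53 and 0.39 with Tau-K174Q against -1.45, -1.02 and -1.64 with Tau-S199E, a difference of 1.24 (SE 0.4, adjusted p = 0.26). ZNF652 followed with a difference of 1.33 (SE 0.54, adjusted p = 0.289). In both genes the libraries of the constructs did not overlap, as in 8 members in all (36.2% of the table).

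Tau-K174Q-S199E against Tau-WT asks what both substitutions do together, and here the zinc finger genes lay closest to Tau-WT. No member passed in limma (0 of 22, 0% of the table), 1 was under an unadjusted p of 0.05 (7.58% of the table), moderated variances called 0, and the libraries did not overlap in 1 member (11.6% of the table). The median size of the difference was 0.57 SD units over the members and 0.65 over the table. The exception at the unadjusted level was ZNF638, with values of -0.9, -0.08 and 1.11 in Tau-K174Q-S199E libraries 16, 17 and 18, all above its Tau-WT values, and a difference of 1.33 (SE 0.5, adjusted p = 0.533). Without library 18 that difference was 0.79. In 19 of 22 members the mean of Tau-K174Q-S199E lay between those of Tau-S199E and Tau-WT, as in 91.8% of the table. It lay beyond Tau-WT in ZNF304, ZNF652 and ZNF714, by -0.14, 0.59 and 0.32 SD units. The SE of these differences were 0.63, 0.54 and 0.43, and none passed. That of ZNF304 was 0.19 without library 16 and 0.08 without library 17, and that of ZNF714 was near 0 without Tau-WT library 1. The means of Tau-K174Q-S199E average libraries that differed. Over members with a positive deposited sign, libraries 16, 17 and 18 averaged 1.41, 0.5 and -0.29. Tau-WT libraries 1, 2 and 3 averaged 0.83, 0.92 and 0.74. Over members with a negative sign the averages were -0.88, -0.75 and 0.65, against -0.87, -1.24 and -1.02 with Tau-WT.

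Adding K174Q to S199E, Tau-K174Q-S199E against Tau-S199E, gave no member past the threshold over the whole fit (0 of 22 members, 0.119% of the table), and that count depended on library 18. There were 13 members at an unadjusted p under 0.05 (56.4% of the table), and moderated variances called 15 (68.8% of the table). Without library 18 the ordinary test called 18 members, 10 rising and 8 falling (78.5% of the table). ZBTB8A had values of 1.33, 0.43 and 0.39 with Tau-K174Q-S199E, against -1.45, -1.02 and -1.64 with Tau-S199E, a difference of 2.09 (SE 0.4, adjusted p = 0.0644). ZNF714 had 1.38, 1.28 and 0.17 with Tau-K174Q-S199E, against -1.11, -1.33 and -1.3 with Tau-S199E, a difference of 2.19 (SE 0.43, adjusted p = 0.0644). The constructs were fully separate in both genes, and in 12 members in all (43.4% of the table).

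Adding S199E to K174Q, Tau-K174Q-S199E against Tau-K174Q, left 0 of 22 members past the threshold (0% of the table), 4 at an unadjusted p under 0.05 (8.23% of the table) and 0 by moderated variances (0.119% of the table). The 4 were ZNF672, ZNF655, ZNF714 and ZNF530. ZNF672 had values of 1.69, 0.06 and 0.04 with Tau-K174Q-S199E, against -1.25, -1.21 and -1.01 with Tau-K174Q, a difference of 1.75 (SE 0.57, adjusted p = 0.456). ZNF655 had -1.26, -1.06 and 0.52 with Tau-K174Q-S199E, against 1.56, 0.53 and 0.56 with Tau-K174Q, a difference of -1.48 (SE 0.5, adjusted p = 0.456). In both genes the libraries did not overlap, as in 5 members in all (11.2% of the table), although in ZNF655 library 18 came very near the lowest Tau-K174Q library. Without library 18 the count was 3 members (8.47% of the table).

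All 22 members passed for the interaction, (Tau-K174Q-S199E minus Tau-S199E) minus (Tau-K174Q minus Tau-WT), as did 97.0% of the table. Because the deposited sign equals that of the interaction in every gene, nothing is read from that count. Of the members 12 passed with a positive and 10 with a negative interaction, where 45.5% and 51.5% of the table passed in those directions, with a median size of 2.74 SD units over the members and 2.68 over the table.

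The fold changes in the authors' deposited table give the members a size on the log2 scale. They were positive in 12 of 22 members (54.5%, against 47.1% of the table), and ran in size between 0.78 and 2.64 with a median of 1.32, against a median of 1.36 over the table. In the authors' deposited table the 3 highest positive values belonged to ZNF346 (1.89), ZNF714 (1.82) and ZNF787 (1.6). The 3 lowest in the authors' deposited table belonged to ZNF706 (-2.64), ZNF530 (-2.33) and ZNF304 (-2.14). By deposited adjusted p, ZNF346 was followed by ZNF714 (0.00103), ZNF106 (0.00122), ZNF706 (0.00241) and ZBTB8A (0.00351). ZNF346 ranked 126 of 1676 by that value, and the median deposited adjusted p was 0.018 over the members and 0.0135 over the table. The authors' clusters 1 to 4 held 8, 4, 6 and 4 of the members, against 535, 255, 353 and 533 of the table.

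**Figure D3:**
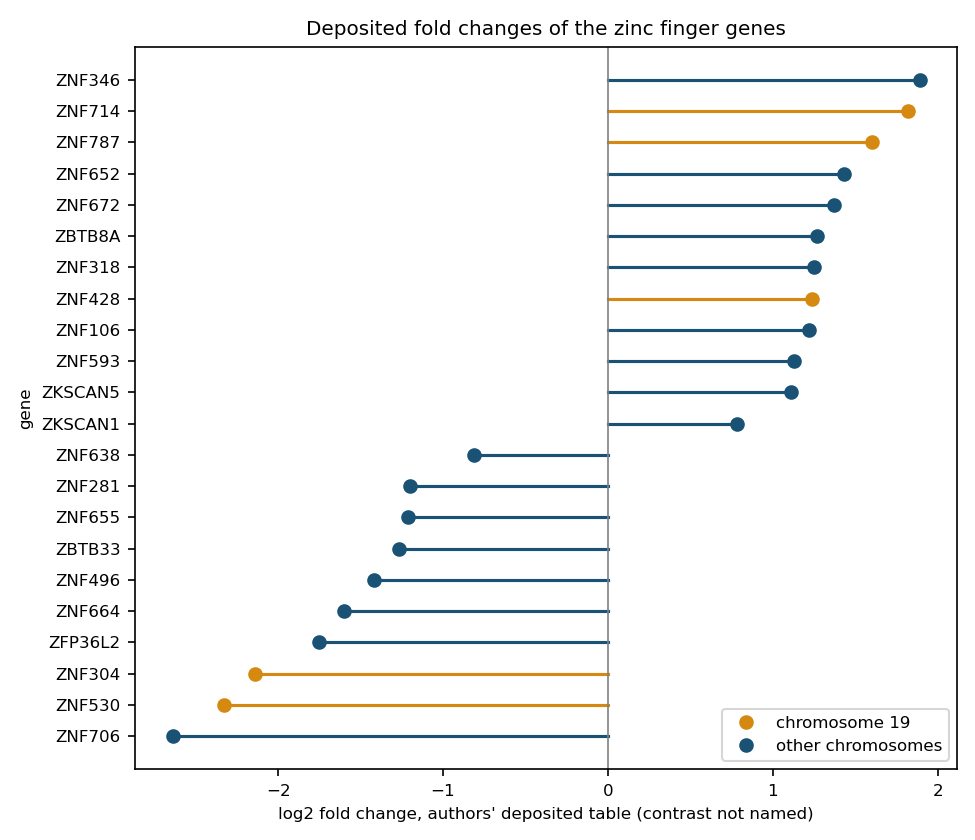
Log2 fold changes of the 22 zinc finger genes in the authors' deposited table (x axis; contrast not named in the header), with chromosome 19 genes in orange and the rest in blue. The 5 chromosome 19 genes lie on both sides of 0, at 1.82, 1.6, 1.24, -2.14 and -2.33.

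The chromosome 19 members did not share a direction. With Tau-S199E against Tau-WT 3 fell and 2 rose among the 5, and 8 fell and 8 rose among the other 17. Among all genes listed, 48.3% rose and 41.8% fell, so a mixed direction is also that of the background. The median sizes were 1.87 SD units over the 5 and 2.02 over the 17, against 1.99 over the table. ZNF714, in the zinc finger cluster near the centromere, fell by 1.87 (SE 0.43, adjusted p = 0.0104), with values of -1.11, -1.33 and -1.3 against -0.01, 0.77 and 1.11 with Tau-WT. The Tau-S199E libraries of ZNF714 had an SD of 0.12, the lowest of the members for that construct. ZNF787 fell by 1.91 (SE 0.59, adjusted p = 0.0196), and ZNF428 is given above with the small proteins. Toward the end of the long arm, ZNF304, which recruits corepressors to the INK4-ARF locus in colorectal cancer cells, rose by 1.61 (SE 0.63, adjusted p = 0.0401), and ZNF530 rose by 1.57 (SE 0.53, adjusted p = 0.0248). ZNF304 had values of -0.03, 0.84 and 2.22 with Tau-S199E against -0.57, -0.8 and -0.45 with Tau-WT, and its difference was 1.01 without library 12. ZNF530 had one Tau-WT library, at 0.15, inside the range of Tau-S199E, and was the member of chromosome 19 whose libraries overlapped. The calls of ZNF304 and ZNF530 were lost without library 11, library 12, Tau-WT library 2 or Tau-WT library 3. That of ZNF304 was also lost without Tau-WT library 1. Finger number did not sort the members either. A positive deposited sign was found in 6 of the 10 with at least 6 patterns and in 6 of the 12 with fewer. Among all genes listed, 47.1% had a positive deposited sign, so a mixed sign is again that of the background. The threshold of 6 patterns was set after the values were seen.

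Neighbouring members could move apart. On chromosome 7, ZKSCAN5 (99504651 to 99534700, plus strand, GRCh38) and ZNF655 (99558406 to 99576453, plus strand) are separated by 23.7 kb, and ZKSCAN1 (100015572 to 100041689, plus strand) lies 439 kb further on. ZKSCAN5 had -1.67, -0.48 and -1.65 with Tau-S199E, against 0.68, 1.02 and 1.16 with Tau-WT. ZNF655 had 0.55, 0.78 and 0.82 with Tau-S199E, against -0.5, -1.2 and -1.31 with Tau-WT. The groups were separate in both genes and their order was opposite, while ZKSCAN1, with -1.16, -0.27 and -2.06 against 1.02, 1.03 and 0.69, followed ZKSCAN5. On chromosome 19, ZNF304 (57351307 to 57359898, plus strand) and ZNF530 (57599885 to 57612722, plus strand) lie 240.0 kb apart and both rose, and ZNF787 (56087366 to 56121280, minus strand) fell. Exons of ZNF655 overlap those of another coding gene on its strand and of FAM200A on the other strand. Exons of ZNF304 overlap an antisense gene, and the strand setting of the counts is not given in the sources used here, so reads of such genes cannot be told apart. In all 5 members overlap a gene on the same strand, ZNF664, ZNF638, ZNF318 and ZBTB8A besides ZNF655, and 4 members overlap one on the opposite strand only. None of those overlapping genes was in the table.

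**Figure D4:**
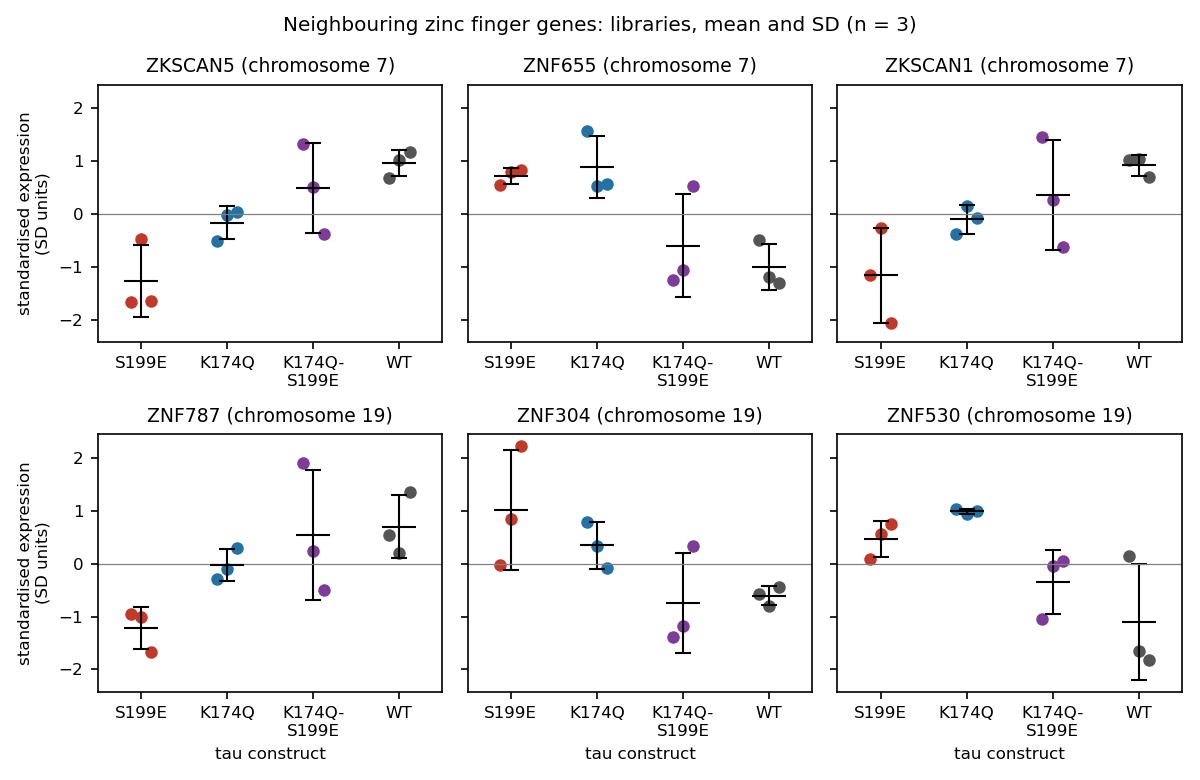
Standardised expression (y axis, SD units) of 3 zinc finger genes of chromosome 7 and 3 of chromosome 19 in each library (points), with the mean and SD of the 3 libraries per construct (bars). ZKSCAN5 and ZKSCAN1 are lowest with Tau-S199E, whereas ZNF655, between them on the chromosome, is high with Tau-S199E and with Tau-K174Q.

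Promoter windows of these neighbours are shown because the genes moved in opposite or like directions from nearby starts. Each is the RefSeq window (GRCh38.p14) of 250 bases before and 50 after the start, 5′ to 3′ on the strand of the gene, at chr7:99504412-99504711 for ZKSCAN5, chr7:99558392-99558691 for ZNF655, chr7:100015346-100015645 for ZKSCAN1, chr19:57351021-57351320 for ZNF304 and chr19:57599635-57599934 for ZNF530. ZKSCAN5 and ZNF655 have 3 listed windows each, of which only the one nearest the GENCODE start was searched. Capitals mark the core CCGGAAG, known for ETS factors, and a gapped motif, ACTAC followed by 4 bases of any kind and CCCA, which lies in the element known for ZNF143, both on either strand.
ZKSCAN5: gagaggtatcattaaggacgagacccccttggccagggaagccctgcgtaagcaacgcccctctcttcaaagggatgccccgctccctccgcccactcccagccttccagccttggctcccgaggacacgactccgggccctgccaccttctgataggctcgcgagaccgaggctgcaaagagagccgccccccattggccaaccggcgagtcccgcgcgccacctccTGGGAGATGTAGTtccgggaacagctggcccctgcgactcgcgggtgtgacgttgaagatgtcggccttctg
ZNF655: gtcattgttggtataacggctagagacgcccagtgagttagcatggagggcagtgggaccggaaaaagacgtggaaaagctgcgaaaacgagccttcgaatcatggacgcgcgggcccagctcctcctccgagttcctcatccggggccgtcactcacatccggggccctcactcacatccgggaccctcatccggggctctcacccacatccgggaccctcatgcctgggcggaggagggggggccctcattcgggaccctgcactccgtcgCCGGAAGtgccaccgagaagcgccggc
ZKSCAN1: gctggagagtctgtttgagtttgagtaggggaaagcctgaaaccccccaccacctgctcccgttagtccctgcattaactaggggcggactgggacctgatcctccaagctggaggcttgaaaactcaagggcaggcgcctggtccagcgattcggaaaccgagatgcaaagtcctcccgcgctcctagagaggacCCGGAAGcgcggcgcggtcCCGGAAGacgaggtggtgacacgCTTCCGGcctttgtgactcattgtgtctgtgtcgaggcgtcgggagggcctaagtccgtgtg
ZNF304: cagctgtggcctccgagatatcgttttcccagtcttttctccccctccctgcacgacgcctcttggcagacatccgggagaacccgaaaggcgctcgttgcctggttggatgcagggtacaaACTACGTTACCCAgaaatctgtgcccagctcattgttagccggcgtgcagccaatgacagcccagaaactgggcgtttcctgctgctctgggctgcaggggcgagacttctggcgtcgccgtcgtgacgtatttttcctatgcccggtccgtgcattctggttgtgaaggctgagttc
ZNF530: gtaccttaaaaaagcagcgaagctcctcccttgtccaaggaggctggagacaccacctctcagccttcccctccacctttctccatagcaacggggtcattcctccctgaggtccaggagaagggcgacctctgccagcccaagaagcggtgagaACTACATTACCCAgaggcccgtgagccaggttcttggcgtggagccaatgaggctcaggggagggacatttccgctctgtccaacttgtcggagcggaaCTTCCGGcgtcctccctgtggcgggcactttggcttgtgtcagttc
ZNF304 and ZNF530, which both rose with Tau-S199E, each hold the second motif on the plus strand, and ZKSCAN5, which fell, holds it on the minus strand. ZNF655 and ZNF530 have 1 ETS core each and ZKSCAN1, which moved the other way, has 3. Both motifs thus occurred in windows of genes that rose and of genes that fell.

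A window was listed for 20 of the 22 members, the exceptions being ZFP36L2 and ZNF706. The start used lay 55221 bases from the GENCODE start in ZNF638, whose window holds an ETS core and a GC box. In ZNF664 it lay 1370 bases from it. The gapped motif, chosen after the windows had been read, occurred in 3 of the 20 windows (15.0%) and in 2.19% of the windows of 27305 genes. The ETS core occurred in 8 (40.0%, against 10.7% of all windows), in 3 of the 12 members with a positive deposited sign and in 5 of the 8 with a negative one. The GC box GGGCGG occurred in 12 (60.0%, against 44.6%), and TATAAA in 0 (against 12.0%). Both strands were searched, and each motif was counted on its own, so that matches of different motifs may overlap. The windows were rich in CpG, with a median of 25.5 CpG against 14.0 over all genes, and a median GC content of 64.0% against 58.3%. These matches describe the letters of the windows and are not binding sites. For each member the window nearest its GENCODE start was taken, and for the 27305 genes the first window listed. Those genes outnumber the 19951 protein-coding genes of GENCODE v29, whereas every member is protein-coding. The shares and medians over all genes are therefore no matched background, and the differences from them cannot be read as a trait of zinc finger promoters.

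Partners of zinc finger repressors were also listed. Of 37 genes of the KRAB corepressor and of heterochromatin 9 were listed: 2 rose, 6 fell and 1 did not pass with Tau-S199E against Tau-WT, where 48.3% of the table rose and 41.8% fell. The median difference of the 9 was -1.82 SD units. Over the table, where 886 differences lay above 0 and 790 below, it was 1.41. TRIM28 itself was not among the 9. CHD3 (-2.25, SE 0.44, adjusted p = 0.00981) and RBBP4 (-2.01, adjusted p = 0.0118), both of the NuRD deacetylase complex, fell, as did the corepressor RCOR1 (-2.13, adjusted p = 0.0128). CHD4, GATAD2A and MBD3, further NuRD subunits, fell by 1.92, 1.82 and 1.57, whereas MTA1 of the same complex had a difference of 1.52 that did not pass (adjusted p = 0.0521). Other NuRD genes of the list, HDAC1, HDAC2, MTA2, MTA3, RBBP7 and GATAD2B, were not in the table, so the complex as a whole cannot be described. The rises were those of the maintenance DNA methyltransferase DNMT1 (2.04, adjusted p = 0.0185) and MORC2 (1.52, adjusted p = 0.0279), an ATPase that works with HUSH.

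Of 100 other C2H2 factors that the name rule does not catch, 12 were listed: 8 rose, 3 fell and 1 did not pass, beside the same 48.3% rising and 41.8% falling in the table, and their median was 1.8, against 1.41 over the table. MAZ, a GC-box factor, rose by 2.25 (SE 0.49, adjusted p = 0.0102) and GLIS2 by 2.22 (SE 0.53, adjusted p = 0.0109). PATZ1, which has a BTB domain, fell by 2.21 (SE 0.51, adjusted p = 0.0104), and the insulator protein CTCF fell by 2.18 (SE 0.46, adjusted p = 0.01). Of 11 BTB partners 2 were in the table, KLHL12, which rose by 1.89 (adjusted p = 0.0196), and SPOP, which fell by 2.05 (adjusted p = 0.0125). Leaving out 1 of the 6 libraries ended the calls of CHD4, GATAD2A, MBD3 and MORC2 for 3 or more of them, that of DNMT1 for Tau-WT library 2, and that of KLHL12 for Tau-WT library 2 or 3. The lists were described by counts and medians alone, and no list was tested against the table.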

How the data were processed

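The deposited table holds, for 1676 genes, a score per library that the authors standardised per gene over 12 libraries (gene SD 1 for every gene, largest absolute mean 5.7e-15, as the values show). It also holds a log2 fold change and an adjusted p-value, per the file headers, and a cluster number as a further deposited value. Tools and build, per the submitters' processing notes and with no role stated, were RSEM 1.2.31, STAR 2.5.3a, DESeq2 and GRCh38. The gene filter is not given in the sources used here. Libraries were made from 400 ng of RNA with a 3′ mRNA kit, per the labels' protocols. Depth is unknown, and no count model, pseudocount or filter on low values can be applied. Column names give the construct and a library number, not the replicate number of the labels, and all 12 columns were used.

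Members were matched by symbol, and type, position and exons came from GENCODE v29 by gene ID (1676 of 1676 found). Finger patterns were counted in the longest translated coding sequence: cysteines with 2 to 4 residues between them, 12 residues, and histidines with 3 to 5 between them. Contrasts were fitted with limma 3.58.1 in R 4.3.3, two-sided, with 8 residual degrees of freedom and a threshold of 0.05, and the code was tested on simulated data. The members and lists were chosen with earlier results of these data known. Named members were the 5 with the smallest deposited adjusted p, the 3 largest deposited fold changes of each sign, up to 10 rises and 10 falls per contrast, the 2 smallest p where none passed, members that did not pass for Tau-S199E, members with 3 or fewer others of their structural class, and of each other list the 3 largest differences or, for lists of up to 5, all. Further genes named outside this rule were chosen after their values were seen.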

Additional observations from a re-analysis of the deposited data

Results flagged for a closer look

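All 22 zinc finger genes passed for limma's interaction term, which asks whether the effect of K174Q differs between the S199E and the unmutated background. The deposited sign equals that of this contrast in every gene, and 97.0% of the table passed as well. The count and the values below are therefore no independent result, and nothing is read from the count. Among the positive values ZNF714 had 3.13 SD units, ZNF106 3.06, ZBTB8A 3.01 and ZKSCAN5 2.87. ZNF672 (2.76), ZNF346 (2.74), ZNF318 (2.73), ZNF593 (2.63) and ZNF428 (2.57) followed, and ZKSCAN1 (2.54), ZNF787 (2.49) and ZNF652 (2.39) had the smallest. Among the negative values ZNF655 had -3.2, ZBTB33 -3.04 and ZNF530 -2.92, followed by ZNF281 (-2.78), ZNF664 (-2.76) and ZNF304 (-2.7). ZNF496 (-2.61), ZFP36L2 (-2.51), ZNF638 (-2.49) and ZNF706 (-2.48) had the smallest of these. The adjusted p ran between 0.0182 and 0.0327.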

How the results depend on the processing

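No paired analysis was possible because the columns carry a library number and not the replicate number of the labels. Finger-bearing RefSeq proteins were not used here, so that planned choice of members was not run. For Tau-S199E against Tau-WT the count of members called lay between 10 (without library 12, 49.7% of the table) and 21 when 1 library was left out. The count was 21 with moderated variances (98.4% of the table), 16 on the 6 libraries of these constructs (72.0%) and 20 on ranks (85.4%). Without libraries 12 and 18 together the count was 19 (79.4% of the table). For Tau-K174Q against Tau-WT it was 0 in the fit reported, 11 with moderated variances, 10 on the 6 libraries of these constructs (48.9% of the table), 13 without libraries 12 and 18 together (58.5% of the table), and between 0 and 9 with 1 library left out. For Tau-K174Q-S199E against Tau-S199E it was 15 with moderated variances, 7 on ranks (24.5% of the table), 12 without libraries 12 and 18 together (43.6% of the table), and between 0 and 18 with 1 library left out. For Tau-K174Q-S199E against Tau-K174Q it was 5 without libraries 12 and 18 together (26.9% of the table) and between 0 and 3 with 1 left out. For the interaction it lay between 17 (without Tau-K174Q library 4, 76.0% of the table) and 22. Tau-K174Q-S199E against Tau-WT and Tau-K174Q against Tau-S199E gave 0 members under each alternative run. Leaving out libraries 12 and 18 together was chosen after seeing the data. Among the single differences recomputed, the sign changed only for Tau-K174Q-S199E against Tau-WT with 1 library left out: ZNF304 ran between -0.68 and 0.19 and ZNF714 between about 0 and 0.7, and neither passed at any setting. The cause of these changes was not tested. With 3 libraries per construct and values that hold no depth, precision rests on the spread between libraries alone.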
